A study of Mus musculus with 4 samples.

Results

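Small structural RNAs are short non-coding RNAs that work inside RNA-protein machines, and in the deposited gene table of rat mesenchymal stem cell (MSC) exosomes they were represented by 4 of 42977 genes. Members were chosen by the table's own gene type, which took the types snRNA, snoRNA, scaRNA, RNase_MRP_RNA, RNase_P_RNA, SRP_RNA, telomerase_RNA, Y_RNA and vault_RNA. Of these 9 types, 4 held 1 gene each (Rmrp, Rn7sl1, Terc and LOC252890) and 5 held none. RNA was sequenced in 2 MSCATV-Exo libraries, from exosomes of MSCs pretreated with 1 µmol/L atorvastatin (ATV), a statin, and in 2 MSC-Exo libraries, from exosomes of MSCs given the same volume of the solvent DMSO. All cells were bone marrow MSCs of male SD rats aged 6 to 8 weeks, used at passages 3 to 4. The pretreatment is given as 24 h in one label and 48 h in another, and exosomes were pelleted from conditioned medium. The comparison asked whether atorvastatin pretreatment of the cells changed the level of each RNA in the exosomes they released.

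The members belong to different machines. RNase MRP is a nucleolar RNA-protein enzyme that cuts precursor ribosomal RNA, and its RNA, the product of Rmrp, shares most of its protein partners with the RNA of RNase P, the enzyme that trims precursor tRNAs. The 7SL RNA encoded by Rn7sl1 is the scaffold of the signal recognition particle (SRP), which brings ribosomes making secreted proteins to the endoplasmic reticulum. Terc encodes the RNA template from which telomerase copies telomere repeats. Small nucleolar RNAs, of which LOC252890 is described as 1, guide chemical modification of other RNAs, and many are cut from introns of host genes. The 7SL and RNase MRP RNAs are made by RNA polymerase III and carry no poly(A) tail.

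The table places Rmrp (gene 29536) at chromosome 15, 27738989 to 27739245, on the minus strand, with a length of 257 bases, in the rat build named rn6 and Rnor_6.0. Its start lay 170 bases from Parp2, a DNA repair gene read in the opposite direction, and the next genes were Ccnb1ip1 and Tep1. In the mouse RefSeq table of GRCm38.p6, the gene between Ccnb1ip1 and Parp2 is Rpph1, the RNA of RNase P, and mouse Rmrp stands between Sit1 and Ccdc107. Rat Sit1 and Ccdc107 lie on chromosome 5 with 0 genes of the deposited table wholly between them, and no Rpph1 is listed in that table. The annotated place of the gene listed as Rmrp is thus the place of the RNase P RNA gene in mouse. No rat sequence was used here, so which of the 2 RNAs gave its reads was not tested.

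Rn7sl1 (gene 102723236; chromosome 6, 91456912 to 91457210, plus strand, 299 bases) started 202 bases from the ribosomal protein gene Rps29, which is read the other way, and was followed by Lrr1. Mouse Rn7s1, a 7SL gene, has the same neighbours, Rps29 and Lrr1. Terc (gene 378461; chromosome 2, 116432723 to 116433110, plus strand, 388 bases) lay 14201 bases from Actrt3, with Mynn beyond it, and overlapped no other listed gene. LOC252890 (gene 252890; chromosome 2, 14700078 to 14700137, minus strand, 60 bases) has the type snRNA but the description of the small nucleolar RNA Z39. It lies wholly inside Cox7c, which encodes a subunit of cytochrome c oxidase and is read in the same direction. The named library kit does not mark the strand, so reads cannot be assigned to a strand at any of these places.

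**Figure D1:**
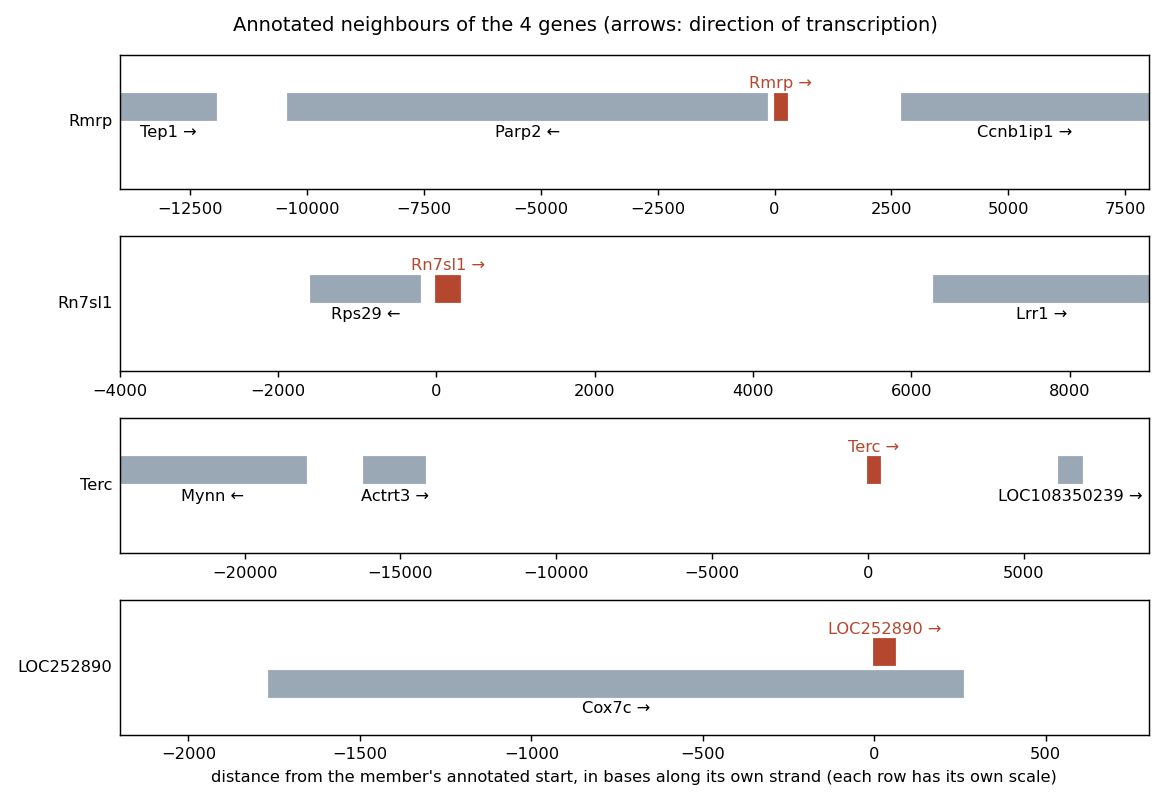
Annotated neighbours of the 4 genes, with distance from each gene's start in bases along its own strand on the x axis; red boxes are the members, grey boxes the neighbouring genes, and arrows the direction of transcription. A tRNA gene near Actrt3 is not drawn. Rmrp and Rn7sl1 each start close to a gene read in the opposite direction (170 bases from Parp2 and 202 bases from Rps29), and LOC252890 lies inside Cox7c.

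The gene table held 5947020 and 5598378 counts in the MSCATV-Exo libraries and 5350295 and 5355098 in the MSC-Exo libraries. Genes that MSCs are not expected to express also had reads: the 1189 olfactory receptor genes had a median of 1.71 and 2.28 RPKM (read counts scaled to gene length and library total) in MSCATV-Exo and 2.48 and 2.36 RPKM in MSC-Exo. All 11 MSC markers were in the table, with a median of 2.38 to 4.29 times the olfactory receptor median per library, and 1 of them, the collagen gene Col1a2, was at 0 in all libraries. The 3 hepatocyte markers, of a tissue not in the culture, stood at a similar 1.96 to 3.87 times. Leukocyte markers, 6 in all, stood at 0.891 to 2.29 times that median, with a summed 16.5 to 18.8 RPKM in MSCATV-Exo and 24.4 to 31.4 RPKM in MSC-Exo. The 4 endothelial markers had the same order, with a summed 16.2 to 17.7 RPKM in MSCATV-Exo and 22.9 to 23.4 RPKM in MSC-Exo. The 5 exosome markers had the opposite order, at 39.7 to 51.8 RPKM in MSCATV-Exo and 37.4 to 38.5 RPKM in MSC-Exo. Sums of the MSC, hepatocyte and erythroid markers overlapped between groups. The part of these reads in the results below was not tested. No label ties the libraries of a group to separate animals or cultures, so every SD, SE and p-value measures the spread between these libraries alone.

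Per length, the members ran from 0 to among the highest genes of the table. Rmrp stood at 2982 and 2834 RPKM in MSCATV-Exo and at 2012 and 2524 RPKM in MSC-Exo. Outside the 7 rRNA genes it ranked 4 in both MSCATV-Exo libraries and 6 and 5 in MSC-Exo. It was first by mean RPKM among the 2701 genes of 200 to 399 bases. The genes ahead of it in mean RPKM outside rRNA were LOC257642, whose description links it to the rRNA promoter, and the unnamed ENSRNOG00000052373 and ENSRNOG00000057291. Rn7sl1 had 175 and 241 RPKM in MSCATV-Exo and 205 and 297 RPKM in MSC-Exo, and ranked 6 in the same length class. Terc had 11.7 and 18.9 RPKM in MSCATV-Exo against 9.15 and 1.44 RPKM in MSC-Exo, with rank 141 in that class. LOC252890 was at 0 counts in all 4 libraries. Each Rmrp value was above every Rn7sl1 value, and each Rn7sl1 value above every Terc value. Terc and LOC252890 could not be ordered in every library, since 3 counts on the 60 bases of LOC252890 would already give 8.41 to 9.35 RPKM.

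**Figure D2:**
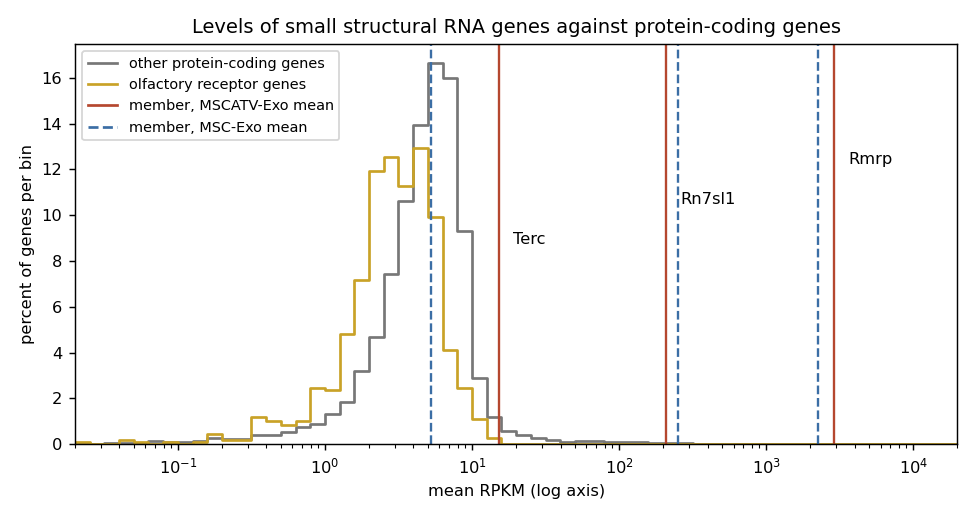
Level of Terc, Rn7sl1 and Rmrp (vertical lines; solid for the MSCATV-Exo mean, dashed for the MSC-Exo mean) on a log axis of mean RPKM, over the distribution of olfactory receptor genes and other protein-coding genes in percent of genes per bin. Rmrp and Rn7sl1 (MSCATV-Exo means 2908 and 208 RPKM) lie far right of both medians, 2.72 and 4.88 RPKM, with Rn7sl1 inside the upper tail of the protein-coding genes, and the MSC-Exo mean of Terc (5.30 RPKM) lies near them.

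Rmrp separated the groups, with more reads in MSCATV-Exo, but did not pass the test over all genes. It had 4557 and 4078 counts in MSCATV-Exo and 2767 and 3474 counts in MSC-Exo. With TMM normalisation factors, Rmrp stood at 834 and 727 CPM (counts scaled to a common library total, not to length) in MSCATV-Exo and 498 and 634 CPM in MSC-Exo, so the groups did not overlap. The same held for 33.5% of all genes tested, with 16.1% higher in MSCATV-Exo. The means were 781 ± 75.6 CPM in MSCATV-Exo and 566 ± 96.2 CPM in MSC-Exo (SD, n = 2 each). The fitted difference was 1.38-fold (95% interval 1.07 to 1.78), a log2 fold change of 0.46 ± 0.17 (SE). In edgeR's quasi-likelihood test its p was 0.0191 before adjustment and 1.00 after Benjamini-Hochberg adjustment over all 33480 genes tested, against a threshold of 0.05. Here and below, a higher count in bulk exosome RNA cannot tell more vesicles with the RNA from more RNA per vesicle.

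Counting error was small beside the spread of Rmrp between the MSC-Exo libraries, while between the MSCATV-Exo libraries this depended on the unit. As RPKM, its exact 95% Poisson intervals were 2896 to 3069 and 2748 to 2923 in MSCATV-Exo, which overlap. In MSC-Exo they were 1938 to 2089 and 2441 to 2610 RPKM, which do not meet. Counts are not scaled to the library total, and no such interval was computed for the normalised CPM. In counts, the intervals were 4426 to 4691 and 3954 to 4205 in MSCATV-Exo, which do not meet. They were 2665 to 2872 counts in MSC-Exo replicate 1 and 3359 to 3591 in MSC-Exo replicate 2, which do not meet either. These intervals hold counting error alone, because PCR copies of a molecule cannot be recognised here. Its neighbours had far lower levels: Parp2, 170 bases away, stood at 3.37 and 6.33 RPKM in MSCATV-Exo and at 2.88 and 5.85 RPKM in MSC-Exo. MSC-Exo replicate 1, the lowest library for Rmrp, was also the lowest for the short 5.8S rRNA, which had 1065 and 1180 counts in MSCATV-Exo and 116 and 759 in MSC-Exo. The 5S rRNA, of 120 bases, did not share this order, with 518 and 639 counts in MSCATV-Exo and 637 and 529 in MSC-Exo. The part of MSC-Exo replicate 1 in the Rmrp difference is shown by leaving it out, which gave a log2 fold change of 0.29 ± 0.18 (SE).

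Rn7sl1 did not separate the groups. It had 311 and 403 counts in MSCATV-Exo and 328 and 476 counts in MSC-Exo. In normalised CPM it stood at 56.9 and 71.9 in MSCATV-Exo and at 59.1 and 86.9 in MSC-Exo, so the groups overlapped. Its fitted log2 fold change was -0.18 ± 0.29 (SE), or 0.882-fold with a 95% interval of 0.562 to 1.38. The edgeR p was 0.552 before adjustment and 1.00 after it, which does not show that the groups had the same level. Without MSC-Exo replicate 2, its highest library, the log2 fold change was 0.13 and without the other libraries it lay between -0.44 and -0.02. Rps29, which starts 202 bases away on the other strand, had 96.8 and 155 RPKM in MSCATV-Exo and 95.2 and 120 RPKM in MSC-Exo. Other 7SL copies could share its reads: the table lists 520 misc_RNA genes with no description (median length 282 bases), which the gene type does not place among the members.

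The ratio of the 2 abundant members needs no scaling between libraries. There were 14.7 and 10.1 Rmrp counts for each Rn7sl1 count in MSCATV-Exo and 8.44 and 7.30 in MSC-Exo. These groups did not overlap. The means were 12.4 ± 3.21 in MSCATV-Exo and 7.87 ± 0.804 in MSC-Exo (SD, n = 2 each), with p = 0.333 in a two-sided exact permutation test. With 2 libraries against 2, p = 0.333 is the smallest value that test can give and an exact test on so few libraries cannot reach 0.05. The ratio of Rmrp to 5S rRNA, which needs no scaling either, was 8.80 and 6.38 in MSCATV-Exo and 4.34 and 6.57 in MSC-Exo, and those groups overlapped (p = 0.667, exact permutation test).

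Terc was covered by few reads. It had 27 and 41 counts in MSCATV-Exo and 19 and 3 counts in MSC-Exo. The Poisson intervals were 17.8 to 39.3 and 29.4 to 55.6 counts in MSCATV-Exo and 11.4 to 29.7 and 0.619 to 8.77 counts in MSC-Exo. In normalised CPM it stood at 4.94 and 7.31 in MSCATV-Exo and 3.42 and 0.548 in MSC-Exo. The groups did not overlap in normalised CPM, which held for 33.5% of all genes tested. The counting intervals of both MSCATV-Exo libraries, however, overlapped that of MSC-Exo replicate 1. The log2 fold change was 1.61 ± 1.24 (SE), with a 95% interval of -1.13 to 4.36, and the edgeR p was 0.222 before adjustment and 1.00 after it. MSC-Exo replicate 2 decided the size: without it the log2 fold change was 0.84 ± 1.31, and without MSC-Exo replicate 1 it was 3.42 ± 1.82 (SE).

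Against the olfactory receptor genes, Terc stood at 6.85 and 8.30 times their median in MSCATV-Exo and at 3.70 and 0.611 times in MSC-Exo. Of the 1189 olfactory receptor genes, 2.78% and 0.252% stood at or above the RPKM of Terc in the MSCATV-Exo libraries, and 6.56% and 62.1% in the MSC-Exo libraries. A gene of its length at the olfactory receptor median would have had 3.94 and 4.94 counts in MSCATV-Exo and 5.14 and 4.91 counts in MSC-Exo. The 3 counts of MSC-Exo replicate 2 were below that level. Actrt3, the nearest protein-coding gene, stood at 2.41 and 2.24 RPKM in MSCATV-Exo and 5.53 and 4.18 RPKM in MSC-Exo. The log2 fold change of Actrt3 was -0.95 ± 1.12 (SE), with an edgeR p of 0.416 before adjustment. A listed pseudogene, LOC108350239, lay nearer to Terc, at 5748 bases. It stood at 2.55 and 1.48 RPKM in MSCATV-Exo and 5.42 and 3.61 RPKM in MSC-Exo.

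LOC252890 had 0 counts in each library, so no fold change or test was possible. Taking 3 counts as the limit that a count of 0 allows gives 8.41 and 8.93 RPKM in MSCATV-Exo and 9.35 and 9.34 RPKM in MSC-Exo for its 60 bases, while the two-sided Poisson interval drawn in the plot of counts reaches 3.69 counts. At the olfactory receptor median it would have had 0.610 to 0.795 counts per library, and 2.93 counts over all 4, so absence could not be told from such a level at this depth. Short features were often without reads: of 487 genes under 80 bases 56.3% had at least 1 count in any library, against 96.4% of the 27974 genes of 1000 bases or more. Among 17 genes of 60 bases or fewer, 5 had a count. RNA had been fragmented to about 200 bases before library preparation, longer than this gene. Its host Cox7c had reads, at 28.5 and 34.4 RPKM in MSCATV-Exo and 12.1 and 6.25 RPKM in MSC-Exo, with a log2 fold change of 1.87 ± 0.67 (SE; adjusted p = 1.00 in edgeR). Small Cajal body and nucleolar RNAs that the table types as miRNA were also at or near 0: Scarna15 and Snora58 had 0 counts in every library, and Scarna3 had 0 counts in both MSCATV-Exo libraries and 1 and 0 in MSC-Exo.

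**Figure D3:**
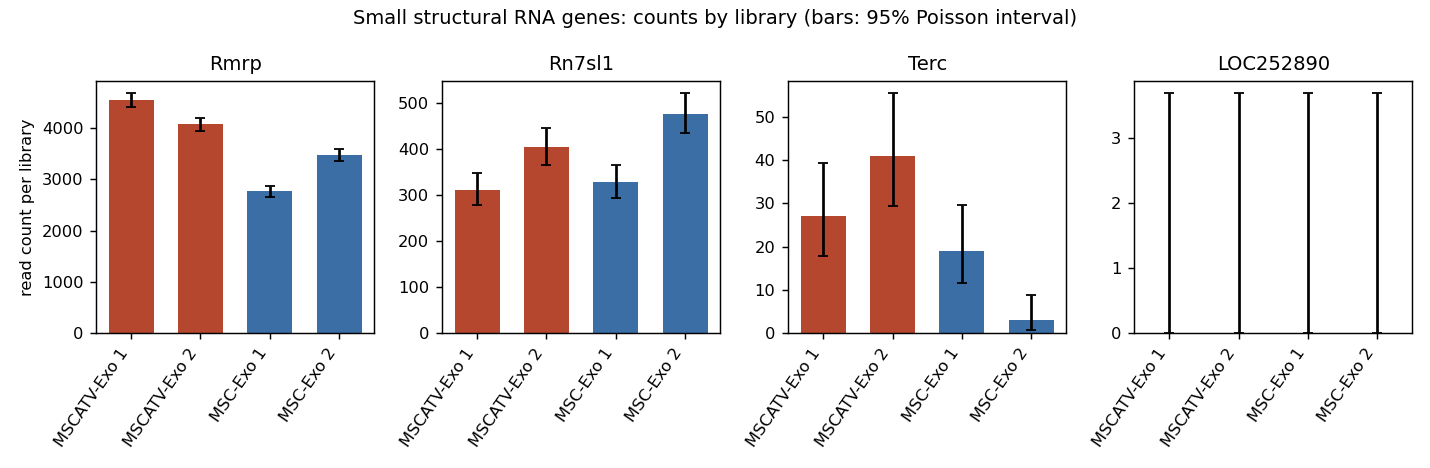
Read counts of the 4 genes in each library (bars, y axes from 0, each panel with its own scale), with MSCATV-Exo in red and MSC-Exo in blue; error bars are exact 95% Poisson intervals. Rmrp has 4557 and 4078 counts in MSCATV-Exo and 2767 and 3474 in MSC-Exo, Rn7sl1 overlaps between groups, Terc is highest at 41 counts, and LOC252890 is at 0.

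The 4 genes together took 0.0823% and 0.0808% of gene counts in MSCATV-Exo and 0.0582% and 0.0738% in MSC-Exo. Rmrp gave 90.2% of the members' counts, Rn7sl1 9.21% and Terc 0.546%, so this share mostly repeats Rmrp. The group means were 0.0815% ± 0.00109 in MSCATV-Exo and 0.0660% ± 0.0110 in MSC-Exo (SD, n = 2 each), with p = 0.333 in a two-sided exact permutation test, the smallest it can give. Genes of rRNA and LOC257642 took 43.3% and 38.6% of counts in MSCATV-Exo and 37.1% and 37.5% in MSC-Exo, so leaving them out raises the members' share more in MSCATV-Exo. Of the remaining counts the members took 0.145% and 0.132% in MSCATV-Exo and 0.0926% and 0.118% in MSC-Exo. The 45S gene repeats the counts of 18S, 28S and 5.8S, so the rRNA shares and the totals of all gene counts hold those reads again.

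By edgeR 0 of the 3 members that passed the count filter had an adjusted p under 0.05, as did 0 of all 33480 genes tested (0% called). Before adjustment 1 of the 3, Rmrp, had a p under 0.05, against 3.69% of all genes and 6.69% of the 1673 genes with over 1000 counts in all. DESeq2 called 0 members and 0.249% of genes, with an adjusted p of 0.114 for Rmrp, 0.983 for Rn7sl1 and 0.803 for Terc. The normalised CPM of the groups did not overlap for Rmrp and Terc, both higher in MSCATV-Exo, and groups did not overlap for 33.5% of all genes (16.1% higher in MSCATV-Exo). For the 3 tested members, log2 fold changes had a median of 0.46, the value of Rmrp, beside -0.01 over all genes tested. The authors' deposited table called all 3 at a q-value under 0.05, as it did 34.3% of its 38021 genes (12.4% higher and 21.9% lower in MSCATV-Exo). In the authors' deposited table the log2 fold change was 0.36 for Rmrp (q = 1.92e-13), -0.27 for Rn7sl1 (q = 0.0264) and 1.53 for Terc (q = 0.00675), and the test behind those q-values is not given in the sources used here. The ncRNA table lists the same 4 RNAs with identical counts, so it adds no second measurement; by edgeR 0 of the 13128 ncRNAs tested were called (0%), with 3.53% at p under 0.05 before adjustment, and DESeq2 called 0 of the members and 0.176% of ncRNAs.

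**Figure D4:**
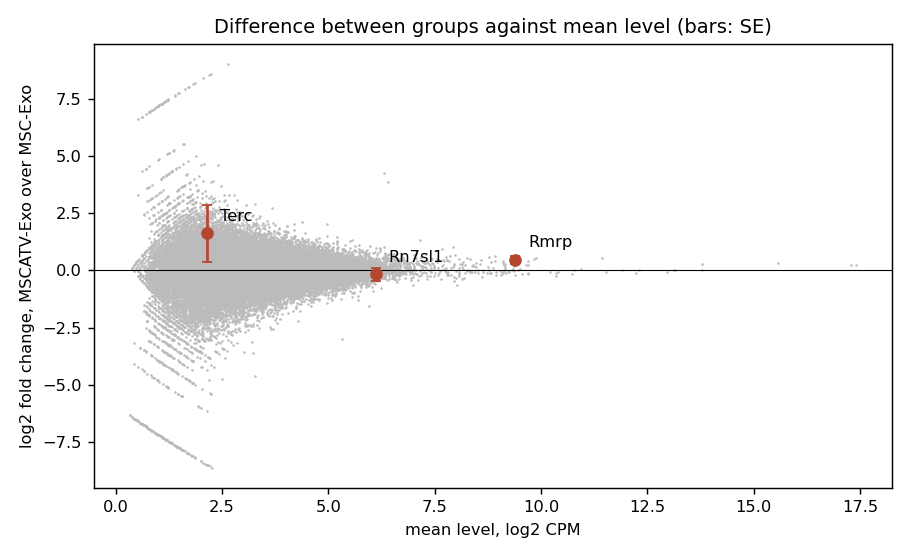
Log2 fold change of MSCATV-Exo over MSC-Exo (y axis) against mean level in log2 CPM (x axis) for all 33480 genes tested (grey) and the 3 tested members (red, bars are SE). Rmrp (0.46) lies among the most abundant genes, where grey points keep close to 0, and Terc (1.61) lies at the low end, where they spread widely.

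**Figure D5:**
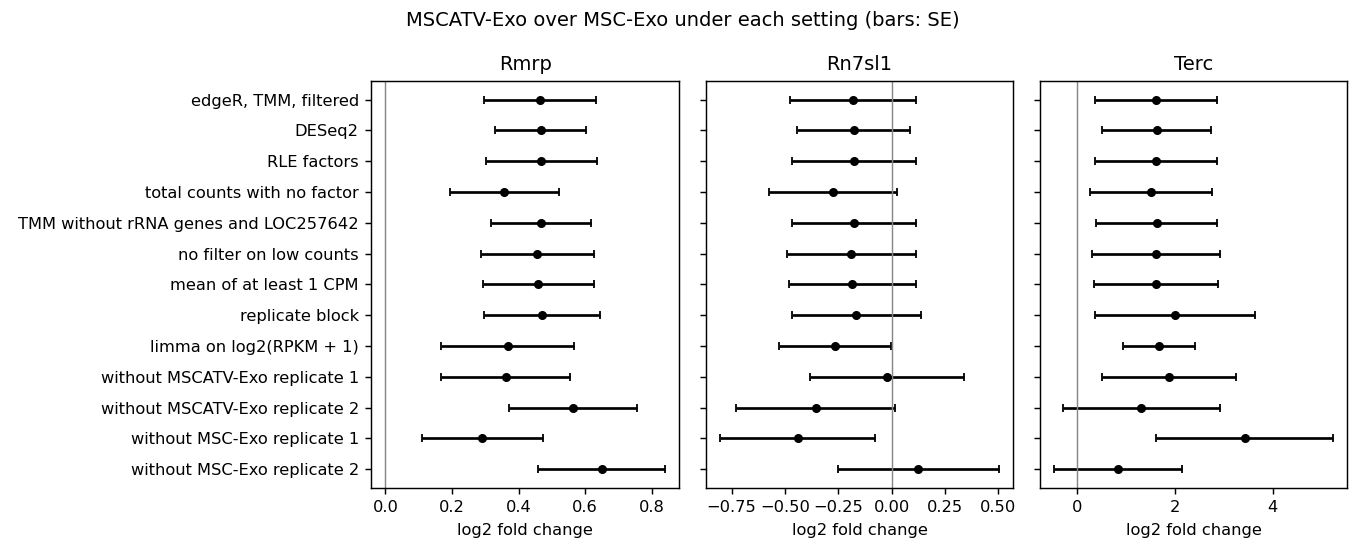
Log2 fold change of MSCATV-Exo over MSC-Exo for Rmrp, Rn7sl1 and Terc under the edgeR fit and each alternative (points, bars are SE). Rmrp stays between 0.29 and 0.65, Rn7sl1 goes from -0.44 to 0.13, and Terc from 0.84 to 3.42.

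The proteins that bind such RNAs and the genes that host small nucleolar RNAs were read in 8 lists. Of 144 listed genes 124 were in the table and 120 were tested, and by edgeR 0 passed the threshold in either direction, while 5 had a p under 0.05 before adjustment, all higher in MSCATV-Exo. Among all genes tested 3.69% had such a p, so 5 of 120 is near the background. DESeq2 also called 0 of them. Of the 120 tested genes, 72 had a log2 fold change above 0 and 48 below, with a median of 0.10, against -0.01 for all genes. With total-count scaling the median of all genes was -0.11, and the total-count medians of the lists below stand beside that value.

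Proteins of RNase P and RNase MRP, the partners of Rmrp, had 7 of 10 members above 0 and 3 below (median log2 fold change 0.05, and -0.06 with total-count scaling). Pop1, a large subunit of both enzymes, had 21.2 and 21.4 CPM in MSCATV-Exo and 15.7 and 13.5 CPM in MSC-Exo (log2 fold change 0.55 ± 0.44, SE). Pop5, another subunit, had 4.94 and 6.60 CPM in MSCATV-Exo and 13.1 and 5.48 CPM in MSC-Exo (-0.69 ± 0.78, SE), and its groups overlapped. Tep1, the gene beyond Parp2, encodes a protein of vaults and telomerase and stood at -0.15 ± 0.31 (SE).

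SRP proteins, the partners of 7SL RNA, had 4 of 6 tested members above 0 and 2 below (median 0.35, and 0.25 with total-count scaling). Srp54a, a copy of the GTPase that binds signal peptides, had 16.1 and 14.4 CPM in MSCATV-Exo and 14.4 and 7.85 CPM in MSC-Exo (log2 fold change 0.46 ± 0.55, SE). Srp9, which binds the Alu part of 7SL RNA, had 13.2 and 4.46 CPM in MSCATV-Exo and 6.30 and 19.0 CPM in MSC-Exo (-0.52 ± 0.75, SE). Proteins of box H/ACA particles and telomerase, the partners of Terc, had 4 of 7 above 0 and 3 below (median 0.06, and -0.05 with total-count scaling). Among them Wrap53, which carries telomerase to Cajal bodies, had 18.9 and 30.1 CPM in MSCATV-Exo and 9.004 and 14.6 CPM in MSC-Exo (1.05 ± 0.49, SE). Dkc1, the pseudouridine synthase that binds telomerase RNA, stood at 0.86 ± 0.59 (SE). Tert, the protein that copies the Terc template, was on the other side at -0.52 ± 0.37 (SE), named after its values were seen; it had 24.0 and 48.7 CPM in MSCATV-Exo and 44.8 and 59.5 CPM in MSC-Exo, and its groups overlapped.

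Box C/D proteins, which bind the other class of small nucleolar RNAs, had 7 of 10 above 0 (median 0.18, and 0.06 with total-count scaling). Nop56, a core protein of these particles, was at 26.9 and 20.0 CPM in MSCATV-Exo and 10.6 and 13.3 CPM in MSC-Exo (log2 fold change 0.97 ± 0.46, SE), and Utp3, a protein of early ribosome assembly, was at 0.44 ± 0.63 (SE). Spliceosomal Sm, LSm and U snRNP proteins split 23 above and 18 below 0 (median 0.10, and -0.02 with total-count scaling), with Lsm5 at 1.87 ± 1.03 and Lsm8 at -2.59 ± 1.52 (SE), both of the LSm ring that binds U6 snRNA. Genes for snRNA assembly and processing had 8 above and 14 below 0 (median -0.10, and -0.20 with total-count scaling), with Gemin8 (0 counts in MSCATV-Exo replicate 1) at -2.80 ± 1.499 and Gemin4 at -0.63 ± 0.35 (SE), both of the SMN complex that loads Sm proteins onto snRNAs. Ro, La and vault proteins had 3 of 5 above 0 (median 0.38, and 0.27 with total-count scaling), with Trove2, the Ro60 protein of Y RNAs, at 0.88 ± 0.53 and the major vault protein gene Mvp at 0.38 ± 0.37 (SE).

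Genes that host small nucleolar RNAs in their introns had 17 of 20 tested members above 0 and 3 below (median log2 fold change 0.25, and 0.15 with total-count scaling), where 49.4% of all genes tested were above 0. The 5 partner genes with an edgeR p under 0.05 before adjustment were in this list, against 3.69% of all genes and 6.69% of those with over 1000 counts in all, and their adjusted p was 1.00. Rpl23, a ribosomal protein gene, had 57.8 and 49.7 CPM in MSCATV-Exo and 25.03 and 34.7 CPM in MSC-Exo (0.85 ± 0.32, SE). Ncl, which encodes the nucleolar protein nucleolin, had 652 and 619 CPM in MSCATV-Exo and 409 and 536 CPM in MSC-Exo (0.43 ± 0.17, SE). Rpsa, which encodes a ribosomal protein (0.51 ± 0.23), and the translation factor gene Eef1a1 (0.43 ± 0.18, SE) were also among them, named after their values were seen. Gas5, a non-coding host gene of many box C/D RNAs and likewise named after its values were seen, was at 0.11 ± 1.45 (SE) and differed more within groups than between them, at 7.69 and 0.713 CPM in MSCATV-Exo and 7.20 and 0.548 CPM in MSC-Exo.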

How the data were processed

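The submitters' processing notes name TopHat2 and the rat build rn6 or Rnor_6.0; the TopHat2 version, the read counter and the annotation release are not given in the sources used here. The samples are registered as mouse, but the growth protocol, build and identifiers are of rat. The deposited tables of the authors hold unnormalized counts for genes and for ncRNAs, with RPKM beside them, which equal counts over length and the summed gene counts (100% of values within 0.1%). The 45S rRNA gene holds the counts of 18S, 28S and 5.8S again (99.6% to 99.7% of its total), so overlapping genes each hold the same reads. The authors' deposited comparison table gives mean RPKM, a log2 fold change, a p-value and a q-value per gene.

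Counts were tested with edgeR 4.0.16 (filterByExpr, TMM, two-sided quasi-likelihood test, Benjamini-Hochberg adjustment, R 4.3.3) on the whole gene table (33480 genes) and apart on the ncRNA table (13128 ncRNAs); the code was tested on simulated data. SE is the absolute log2 fold change over the root of F. Depth was 5350295 to 5947020 counts per library, and floors rest on 3 counts. DESeq2 1.42.0 and limma 3.58.1 served as alternatives. All members were named; of each partner list the 2 genes with the smallest p were. Members and lists were chosen with earlier results of these data known. The values of 1 partner gene are not reported here. Mouse RefSeq names served for gene order only.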

Additional observations from a re-analysis of the deposited data

How the results depend on the processing

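With every library kept, the count of 0 members with an adjusted p under 0.05 held under each alternative fit of the gene table. Those fits called few genes of any kind: DESeq2 called 0.249%, the fit with no filter on low counts 8, the replicate block 4, and the rest 0. The members' count became 3 with the authors' deposited q-values, which called 34.3% of all genes. For the partner genes and the members in the ncRNA table it was also 0 under each alternative that kept every library. There DESeq2 called 0.176% of all ncRNAs. The log2 fold change of Rmrp was 0.36 to 0.47 over the alternatives that kept every library and 0.29 to 0.65 with a library left out; that of Terc was 1.52 to 2.00 and 0.84 to 3.42; that of Rn7sl1 was -0.27 to -0.16 and -0.44 to 0.13. The value of Rn7sl1 turned to 0.13 without MSC-Exo replicate 2; Rn7sl1 turned under no other alternative. The members' median, equal to Rmrp's value, was 0.29 to 0.65 with a library left out, and each gene type held 1 gene, so its median is that gene's value. The members' share differed by 0.0155 percentage points, by 0.0331 outside rRNA and LOC257642, and by 0.00772 (without MSC-Exo replicate 1) to 0.0233 (without MSC-Exo replicate 2) with a library left out. With every library kept, the unadjusted edgeR p of Rmrp, 0.0191, rose to 0.0547 with total-count scaling and to 0.120 by limma. It fell to 0.000664 by DESeq2, 0.0100 with TMM outside rRNA and LOC257642, and 0.0103 with no filter on low counts. It was also lower with the replicate block (0.0125), a mean of at least 1 CPM (0.0171) and RLE factors (0.0177). Leaving out the first library of MSC-Exo or of MSCATV-Exo lowered the log2 fold change of Rmrp, to 0.29 and 0.36. Leaving out the second raised it, to 0.65 and 0.56. Total-count scaling moved the median of all genes from -0.01 to -0.11. Of 192 alternatives for 16 named partner genes 3 changed sign: Srp9 (-1.502 to 0.48 with a library left out) turned to 0.48 without the second MSC-Exo library and to 0.06 without the second MSCATV-Exo library, and Pop5 (-1.18 to 0.067) to 0.067 without the first MSC-Exo library; the cause was not tested. The replicate numbers name no shared animal, and deviations of same-numbered libraries were uncorrelated (r = -0.000516 over 33480 genes); with the replicate number as a block Rmrp was at 0.47 and 4 genes were called, 0 of them members. With a library left out, the lone library of a group is assumed to vary like the others. Depth limits Terc and LOC252890, as given beside their counts.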
